A study of Mus musculus with 3 samples.

Results

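Transcript levels of 37 genes of glycolysis and of the response to low oxygen were followed in 3 populations of mouse bone marrow cells. The genes were chosen by name. They comprise 2 glucose transporters, the enzymes from hexokinase to lactate dehydrogenase, 2 lactate transporters, the 4 pyruvate dehydrogenase kinases, and subunits, regulators and targets of the hypoxia-inducible factor HIF. All 37 had a row among the 23393 genes measured, and 36 averaged 50 or more over the 3 libraries, the minimum for computing a ratio. The exception was Eno1, at a mean of 0.667, and the member with the lowest mean above the minimum was Epas1, at 91.0. The populations were GFP+ hematopoietic stem cells (HSCs), with genotype Map17-GFP+, GFP- HSCs, with genotype Map17-GFP-, and multipotent progenitors (MPPs), also with genotype Map17-GFP-, all of strain C57BL/6. The labels name no treatment. The cells were sorted from the lineage-negative, Sca-1-positive, c-Kit-positive compartment, the HSCs as CD48- and CD150+ cells and the MPPs as CD48+ and CD150- cells. Each population was 1 library. The sources used here give neither the age nor the number of the mice, nor any pooling.

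Glycolysis splits glucose into pyruvate in the cytosol and yields ATP without oxygen. Lactate dehydrogenase turns pyruvate into lactate, and pyruvate dehydrogenase kinases hold pyruvate back from the mitochondria by switching off the enzyme complex that feeds the citric acid cycle. HIF is a transcription factor made of an alpha subunit, degraded when oxygen is present, and the stable subunit ARNT. Prolyl hydroxylases of the EGLN family mark the alpha subunit for the VHL ubiquitin ligase, and many glycolytic genes are HIF targets. Bone marrow stem cells are known for a low-oxygen niche and for reliance on glycolysis.

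The quantity measured was the authors' normalized count per gene, here called a level, and it was scaled by the authors between libraries, so that the sequencing depth is unknown. Summed levels were 25311805 in GFP+ HSCs, 25375047 in GFP- HSCs and 26689660 in MPPs, of which the 37 members held 0.511% in GFP+ HSCs, 0.505% in GFP- HSCs and 0.502% in MPPs. The sort genes went with the gates, with Slamf1, which encodes CD150, at 2219 in GFP+ HSCs, 2144 in GFP- HSCs and 17 in MPPs, and with Cd48 at 64 in GFP+ HSCs, 168 in GFP- HSCs and 7744 in MPPs. There were no replicates and so no test, and a difference is given as a ratio of levels. A gene is called higher or called lower when its levels plus 5 were 2-fold apart or more. In RNA from many cells, fewer cells of a type and less RNA per cell cannot be told apart.

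The GFP+ and GFP- HSCs had nearly the same levels of these genes. None of the 36 members was called in either direction, where 0.410% of 11951 genes were called higher and 0.870% called lower. The median log2 ratio was 0.05, with 22 members higher and 14 lower, beside 0.01 for all genes. Without regard to sign the median was 0.13, beside 0.14 for all genes, and 18 members differed by less than 10%. Against MPPs, the GFP- HSCs had 7 members called higher and 4 called lower, beside 11.6% and 5.53% of all genes. The 7 are 19.4% and the 4 are 11.1% of the 36 members. The median log2 ratio was again small, at 0.09, beside -0.01 for all genes. The GFP+ HSCs had 7 members called higher than MPPs and 3 called lower, beside 13.7% and 8.61%, with a median of 0.17 beside 0.01. Both HSC comparisons with MPPs use the same MPP library. Nearest to the 2-fold limit in GFP- HSCs against MPPs were Aldoc inside at 1.13 and Slc2a1 outside at 0.59 among higher members, and Egln1 inside at -1.04 and Gpi1 outside at -0.57 among lower ones, all as log2 ratios. Of the 7 higher members, Eno2, Pdk4 and Epas1 had means below 200. They were at 17, 3 and 1 in MPPs, in that order, and passed the minimum through their HSC levels, so that a difference was built into their selection. Among the 30 members with a mean of 200 or more, 4 were called higher in GFP- HSCs and 4 in GFP+ HSCs, beside 8.30% and 10.2% of all genes with such a mean.

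**Figure D1:**
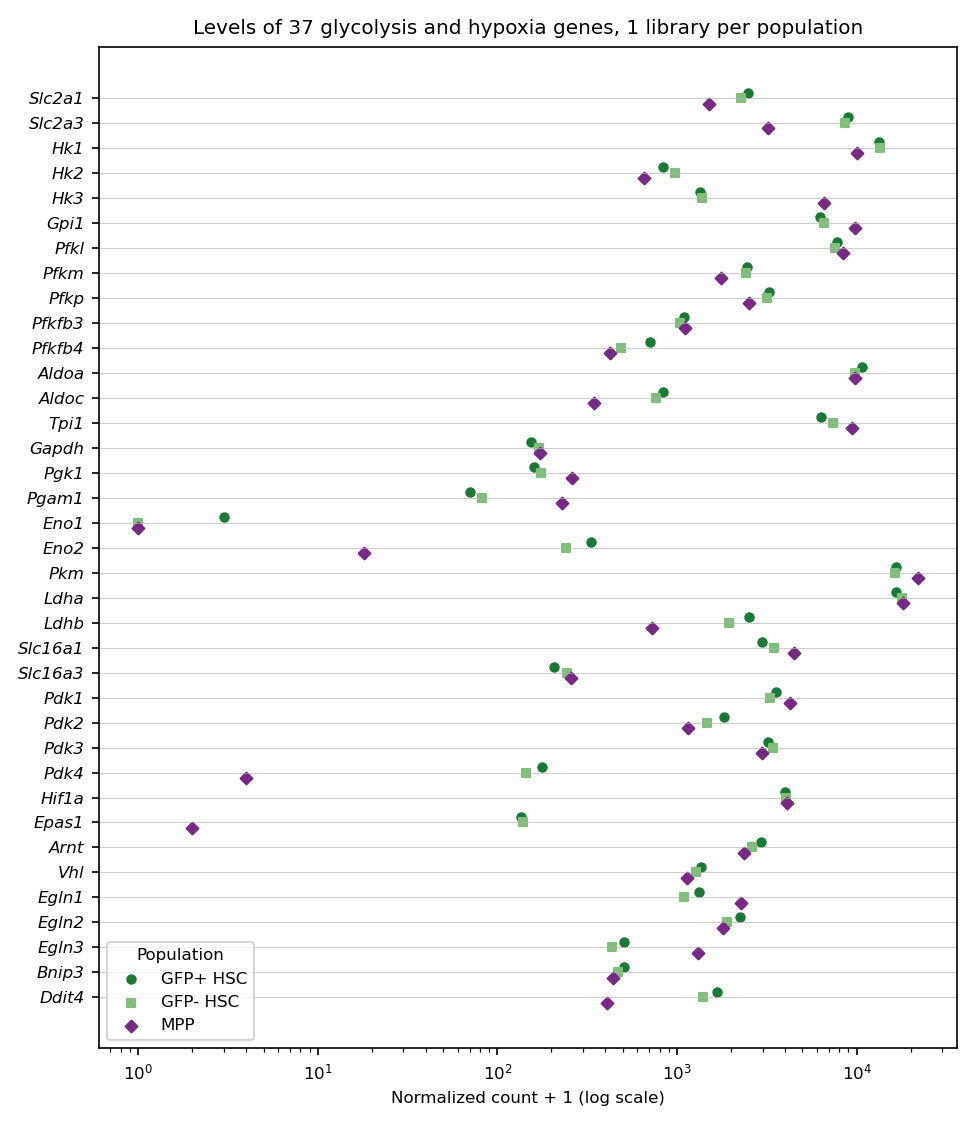
Level of each of the 37 members in GFP+ HSCs, GFP- HSCs and MPPs, as normalized count plus 1 on a log axis, 1 point per library with no error since each population is 1 library. The GFP+ and GFP- points lie close together in nearly every row, whereas the MPP points of Hk3, Eno2, Pdk4, Epas1 and Egln3 stand apart from both.

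**Figure D2:**
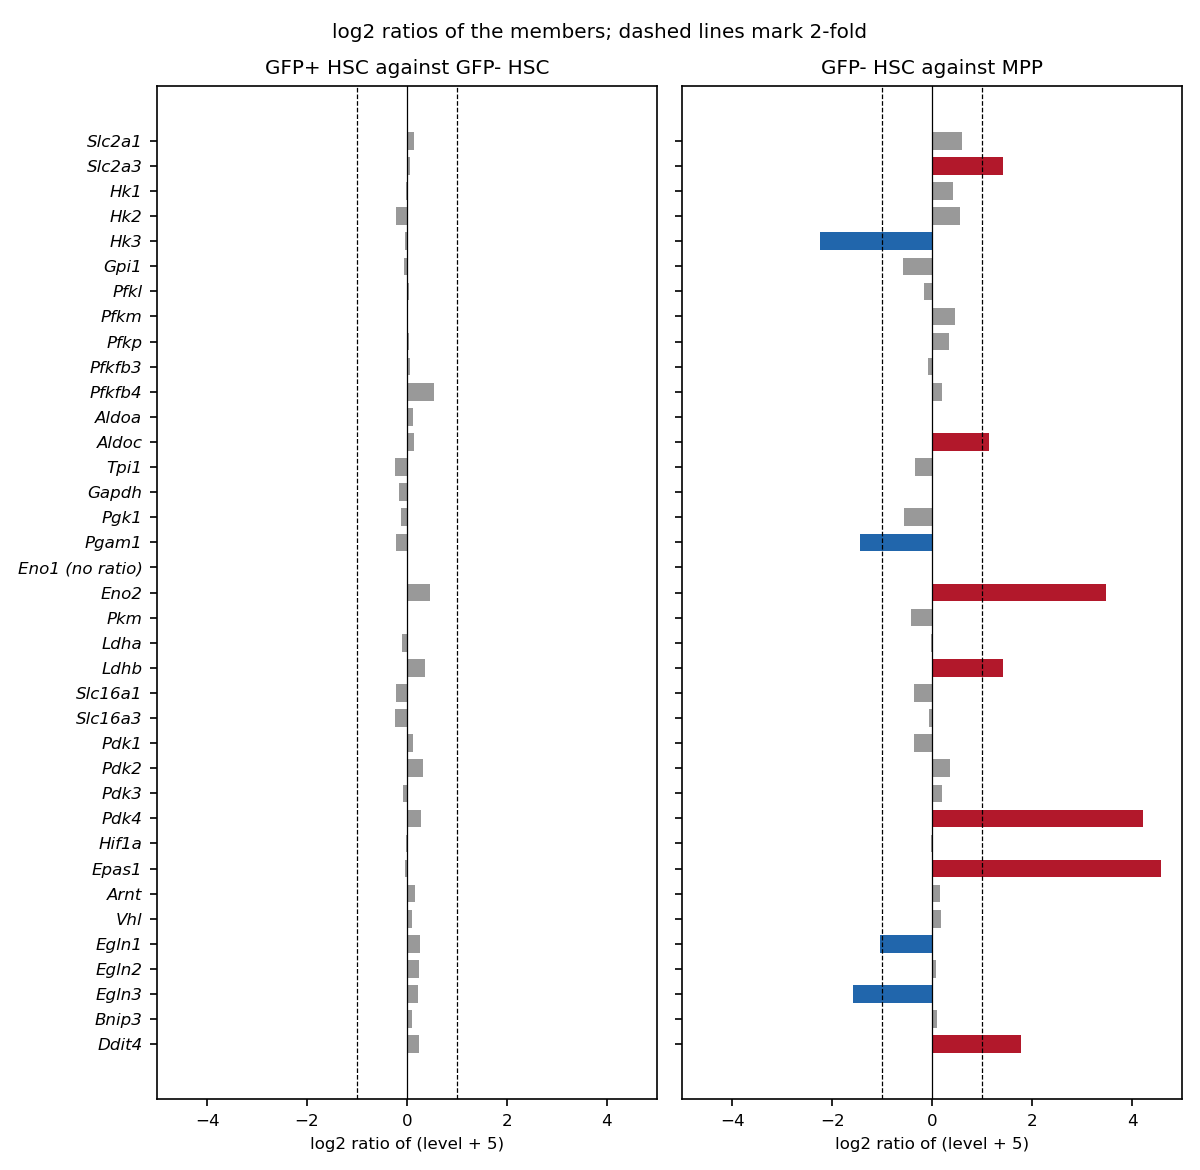
The log2 ratio of level plus 5 for each member, for GFP+ against GFP- HSCs on the left and GFP- HSCs against MPPs on the right, with members called higher in red and called lower in blue. No bar on the left reaches the 2-fold lines, and 7 red and 4 blue bars do so on the right.

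Cell division genes moved with the same contrasts and are given here as measured values. All 24 S phase genes and all 24 mitosis genes of the lists used were lower in GFP+ than in GFP- HSCs, with median log2 ratios of -0.51 and -0.68, and all of both lists were below their MPP level in GFP- HSCs, with medians of -0.72 and -1.31. Their part in the ratios of the members was not tested.

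HIF binds a short DNA core, and the promoters of members that were far apart between HSCs and MPPs are set beside that of Ldha, a level member. The cores searched were ACGTG and GCGTG on both strands. Where CACGTG occurs, ACGTG is counted on each strand. The windows run from 250 bases before to 50 bases after the annotated start, on GRCm38.p6 from RefSeq, 5′ to 3′ in the direction of the gene, and capitals mark the cores.
Pdk4, chr6:5496229-5496528, minus strand: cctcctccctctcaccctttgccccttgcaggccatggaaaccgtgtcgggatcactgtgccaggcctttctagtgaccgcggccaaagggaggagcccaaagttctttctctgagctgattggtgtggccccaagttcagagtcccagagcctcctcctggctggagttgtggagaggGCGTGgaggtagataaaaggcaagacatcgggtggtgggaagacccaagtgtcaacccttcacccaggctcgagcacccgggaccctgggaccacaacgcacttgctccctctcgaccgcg
Eno2, chr6:124769624-124769923, minus strand: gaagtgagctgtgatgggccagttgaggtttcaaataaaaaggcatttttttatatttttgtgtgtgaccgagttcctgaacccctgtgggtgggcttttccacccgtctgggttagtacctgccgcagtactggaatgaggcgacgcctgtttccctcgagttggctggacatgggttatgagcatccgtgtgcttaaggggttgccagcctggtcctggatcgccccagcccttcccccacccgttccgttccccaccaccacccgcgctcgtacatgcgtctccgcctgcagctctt
Ddit4, chr10:59951721-59952020, minus strand: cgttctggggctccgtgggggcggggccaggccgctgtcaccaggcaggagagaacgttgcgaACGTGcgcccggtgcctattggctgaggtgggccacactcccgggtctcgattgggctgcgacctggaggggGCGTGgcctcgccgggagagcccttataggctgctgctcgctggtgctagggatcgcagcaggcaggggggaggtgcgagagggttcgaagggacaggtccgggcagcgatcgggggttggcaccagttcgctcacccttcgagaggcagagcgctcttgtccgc
Hk3, chr13:55021336-55021635, minus strand: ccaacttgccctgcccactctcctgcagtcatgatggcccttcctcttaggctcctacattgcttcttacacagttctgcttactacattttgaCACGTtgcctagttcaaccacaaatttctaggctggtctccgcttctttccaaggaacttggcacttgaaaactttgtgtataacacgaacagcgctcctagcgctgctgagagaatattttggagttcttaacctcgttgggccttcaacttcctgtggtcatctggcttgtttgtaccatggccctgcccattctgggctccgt
Egln3, chr12:54203825-54204124, minus strand: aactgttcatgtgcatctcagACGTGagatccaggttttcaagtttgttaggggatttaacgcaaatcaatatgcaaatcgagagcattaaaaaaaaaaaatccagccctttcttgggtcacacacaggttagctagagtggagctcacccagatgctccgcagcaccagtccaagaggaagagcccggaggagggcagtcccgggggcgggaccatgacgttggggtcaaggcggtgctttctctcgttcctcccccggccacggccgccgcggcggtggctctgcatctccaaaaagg
Ldha, chr7:46845554-46845853, plus strand: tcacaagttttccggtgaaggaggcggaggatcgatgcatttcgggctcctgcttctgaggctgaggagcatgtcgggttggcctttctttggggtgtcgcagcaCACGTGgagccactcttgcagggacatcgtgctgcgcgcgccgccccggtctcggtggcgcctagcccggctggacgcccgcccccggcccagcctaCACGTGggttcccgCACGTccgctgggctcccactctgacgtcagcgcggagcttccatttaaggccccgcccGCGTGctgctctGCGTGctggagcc
The printed Ldha window held 7 matches and a second RefSeq promoter of Ldha, not printed, held 2. No other window of a member held as many as 7, so Ldha does not stand for the members not called. The windows of Tpi1, Gpi1 and Vhl, also not called, held 0. Of called members not printed, Pgam1 held 3, Egln1 held 2, Ldhb held 1, and Aldoc held 3 in 1 window and 1 in another. Ddit4 held 2, and Pdk4, Hk3 and Egln3 held 1 each, whereas these letters did not occur in the window of Eno2. Of the 35 members with a RefSeq promoter, 31 held a core in at least 1 of their promoters (88.6%), beside 68.4% of 8994 genes past the minimum and 46.7% of 27025 genes with a promoter. By promoter, 80.0% of 50 windows of members held a core, beside 62.2% of 11500 and 43.8% of 32851. Against the calls for GFP- HSCs and MPPs, a core was found in 4 of 5 members called higher, in 4 of 4 called lower and in 22 of 25 not called. A match is a description of the letters and was not a measure of binding.

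Glucose enters these cells through facilitative transporters, and both members of that group were higher in HSCs than in MPPs. Slc2a3, which encodes the high-affinity transporter GLUT3 (GRCm38 chromosome 6, 122727809 to 122802363), stood at 8942 in GFP+ HSCs, 8576 in GFP- HSCs and 3209 in MPPs. The GFP+ HSCs were thus 2.79-fold and the GFP- HSCs 2.67-fold above MPPs. Slc2a1, which encodes GLUT1 (chromosome 4, 119108745 to 119137330), stood at 2500 in GFP+ HSCs, 2267 in GFP- HSCs and 1502 in MPPs, a smaller difference of 1.51-fold between GFP- HSCs and MPPs. Divided by transcript length and summed, the 2 transporters reached 3026 and 2862 per kb in GFP+ and GFP- HSCs and 1271 per kb in MPPs. Slc2a3 made up 74.7% in GFP+ HSCs, 75.7% in GFP- HSCs and 63.8% in MPPs of these sums.

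Hexokinases trap glucose in the cell by phosphorylation, and the mix of the 3 members differed between HSCs and MPPs more than their sum. Hk1, the housekeeping hexokinase of most tissues (chromosome 10, 62268855 to 62379920), stood at 13253 in GFP+ HSCs, 13423 in GFP- HSCs and 10033 in MPPs. Hk3, a hexokinase known from myeloid cells (chromosome 13, 55005985 to 55021475), stood at 1342 in GFP+ HSCs, 1378 in GFP- HSCs and 6575 in MPPs. It was 4.90-fold lower in GFP+ HSCs and 4.77-fold lower in GFP- HSCs than in MPPs. Hk2, an inducible enzyme that responds to HIF and insulin, stood at 837 in GFP+ HSCs, 969 in GFP- HSCs and 657 in MPPs. On the scale of level per kb, Hk1 made up 84.5% of the hexokinases in GFP+ HSCs, 83.9% in GFP- HSCs and 52.0% in MPPs, and Hk3 made up 11.4% in GFP+ HSCs, 11.4% in GFP- HSCs and 45.3% in MPPs. The family sums were 3667 in GFP+ HSCs, 3742 in GFP- HSCs and 4507 in MPPs per kb. Markers of neutrophils, 10 genes with none at 0, summed to 2172 in GFP+ HSCs, 1366 in GFP- HSCs and 16943 in MPPs. Most of the MPP sum was the neutrophil elastase gene Elane, at 425 in GFP+ HSCs, 557 in GFP- HSCs and 16125 in MPPs. The other 9 summed to 1747 in GFP+ HSCs, 809 in GFP- HSCs and 818 in MPPs. Of the 10 genes, 2 stood below and 6 above their MPP level in both HSC libraries, among the 6 the granule genes Ltf, Ngp and Camp. Markers of monocytes and macrophages summed to 6664 in GFP+ HSCs, 6450 in GFP- HSCs and 13757 in MPPs over 6 genes, none at 0 and all 6 below their MPP level in both HSC libraries. The part of these genes' cells in the Hk3 level was not tested.

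The next enzymes kept closer levels. Gpi1, which interconverts glucose and fructose phosphates (chromosome 7, 34201327 to 34230336), stood at 6272 in GFP+ HSCs, 6563 in GFP- HSCs and 9762 in MPPs, 1.49-fold lower in GFP- HSCs than in MPPs. Phosphofructokinase commits sugar to glycolysis. Its liver-type gene Pfkl stood at 7748 in GFP+ HSCs, 7564 in GFP- HSCs and 8432 in MPPs, the muscle-type gene Pfkm at 2452 in GFP+ HSCs, 2418 in GFP- HSCs and 1747 in MPPs, and the platelet-type gene Pfkp at 3251 in GFP+ HSCs, 3174 in GFP- HSCs and 2508 in MPPs. Pfkl was the main form per length, with 55.9% in GFP+ HSCs, 55.8% in GFP- HSCs and 65.1% in MPPs of the family. The family sum was level at 3713 in GFP+ HSCs, 3634 in GFP- HSCs and 3472 in MPPs per kb. Pfkp shares 17.4% of its transcript with the overlapping gene Pitrm1 on the other strand, which stood at 4791 in GFP+ HSCs, 4822 in GFP- HSCs and 5383 in MPPs, and the library chemistry does not mark strand, so their reads cannot be fully told apart. The whole gene span of Pfkm overlaps that of Senp1, at 3386 in GFP+ HSCs, 4058 in GFP- HSCs and 4655 in MPPs. The span of Tpi1 overlaps that of Spsb2, at 349 in GFP+ HSCs, 226 in GFP- HSCs and 173 in MPPs. The span of Hk3 overlaps that of Unc5a, at 616 in GFP+ HSCs, 593 in GFP- HSCs and 509 in MPPs. Of the transcript itself, 0% was shared with other genes for Pfkm and 0.0941% for Hk3. For Tpi1, the 2 genes that shared at least 5% of it were pseudogenes. Pfkfb3 and Pfkfb4 encode enzymes that make and break fructose 2,6-bisphosphate, the activator of phosphofructokinase. Pfkfb3 stood at 1089 in GFP+ HSCs, 1040 in GFP- HSCs and 1102 in MPPs, with little difference among libraries. Pfkfb4 stood at 709 in GFP+ HSCs, 489 in GFP- HSCs and 425 in MPPs and was 1.45-fold higher in GFP+ than in GFP- HSCs, the farthest of all members in that comparison but short of 2-fold.

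Aldolase and triose phosphate isomerase, in the middle of the pathway, had high levels per kb, with 99.1% of genes below Aldoa and 98.4% below Tpi1. Aldoa, the main aldolase of most tissues (chromosome 7, 126795234 to 126800994), was level at 10738 in GFP+ HSCs, 9853 in GFP- HSCs and 9739 in MPPs. Aldoc, known from brain (chromosome 11, 78323073 to 78327781), stood at 839 in GFP+ HSCs, 760 in GFP- HSCs and 344 in MPPs and was 2.44-fold above MPPs in GFP+ HSCs and 2.21-fold above MPPs in GFP- HSCs. It was still a minor form, with 4.16% in GFP+ HSCs, 4.11% in GFP- HSCs and 1.93% in MPPs of the aldolases per length. Without division by length its shares were 7.25% in GFP+ HSCs, 7.16% in GFP- HSCs and 3.41% in MPPs. Tpi1 stood at 6332 in GFP+ HSCs, 7428 in GFP- HSCs and 9460 in MPPs, lower in GFP- HSCs than in MPPs by 1.27-fold and lower in GFP+ than in GFP- HSCs by 1.17-fold.

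In the lower part of the pathway, Gapdh, Pgk1, Pgam1 and Eno1 had low levels, which are given as uncertain below, whereas Pkm stood high. Gapdh, which encodes the dehydrogenase widely used as a housekeeping control (chromosome 6, 125161852 to 125166467), stood at 152 in GFP+ HSCs, 170 in GFP- HSCs and 171 in MPPs. The phosphoglycerate kinase gene Pgk1 (chromosome X, 106187100 to 106203699) stood at 160 in GFP+ HSCs, 174 in GFP- HSCs and 258 in MPPs. The phosphoglycerate mutase gene Pgam1 (chromosome 19, 41911871 to 41918665) stood at 69 in GFP+ HSCs, 81 in GFP- HSCs and 229 in MPPs, which made it 3.32-fold lower in GFP+ HSCs and 2.83-fold lower in GFP- HSCs than in MPPs. Eno1, the general enolase (chromosome 4, 150236708 to 150248879), was at 2 in GFP+ HSCs and listed at 0 in GFP- HSCs and in MPPs. Per kb, Gapdh averaged 116 over the libraries, Pgk1 108 and Pgam1 71.2, whereas Tpi1 and Pkm, which act directly before and after these steps, averaged 4816 and 7518. Per kb of transcript, 21.4% of the genes past the minimum were below Gapdh, 20.2% below Pgk1, 14.2% below Pgam1 and 0 below Eno1. For Pkm, Aldoa and Ldha the shares were 99.2%, 99.1% and 99.5%.

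These low genes share sequence with other annotated genes. Of all 32-base stretches of the longest coding transcript, 84.0% of those of Gapdh, 72.7% of those of Eno1, 68.3% of those of Pgk1 and 42.1% of those of Pgam1 also occurred in the transcript of another gene. Gapdh shared at least 5% of its stretches with 157 annotated genes, of which 147 were pseudogenes. Eno1 shared 71.1% with the coding gene Eno1b, Pgk1 shared 68.2% with the processed pseudogene Pgk1-rs7, and Pgam1 shared all of its 42.1% with Pgam1-ps2. Among genes past the minimum, those sharing more than 50% had a median level of 335 per kb, beside 383 per kb for all. Genes below the minimum, Eno1 among them, were left out of these medians. Whether low levels were general among genes that share sequence was therefore not tested. More than 50% of a transcript was shared for 3.86% of all genes past the minimum, and for 4 of the 37 members, the fourth being Bnip3 at 74.1%. The order was not strict, since Pkm with 49.8%, Ldhb with 40.5%, Gpi1 with 35.9%, Ldha with 33.2% and Aldoa with 32.9% stood high. For 24 members the share was 5% or less. How reads that fit several places were counted is not given in the sources used here, and its part in these levels was not tested. For the 12 members that shared 10% or more, high and low ones alike, reads could be split between copies, and their levels are given as uncertain.

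**Figure D3:**
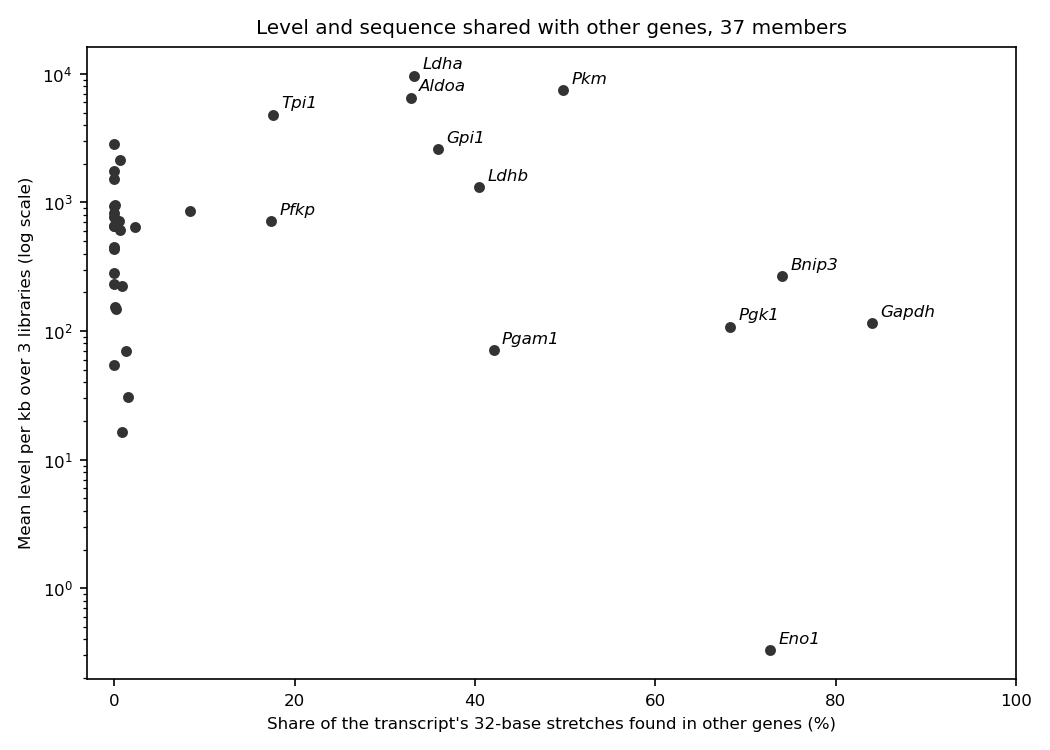
Each of the 37 members by the share of its longest coding transcript's 32-base stretches that occur in other genes (percent) and its mean level per kb of transcript over the 3 libraries (log axis), with members at 10% or more named. Gapdh, Pgk1, Bnip3 and Eno1 at the right have mean levels per kb of 116, 108, 268 and 0.329, whereas Pkm at 49.8% shared stands at 7518.

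Eno2, the enolase known from neurons (chromosome 6, 124760053 to 124769673), shares only 1.31% of its transcript and stood at 332 in GFP+ HSCs, 240 in GFP- HSCs and 17 in MPPs. It was 19.5-fold above MPPs in GFP+ HSCs and 14.1-fold above MPPs in GFP- HSCs, from a low level in MPPs. No share of Eno2 among the enolases is given, since Eno1 was listed at 0 in GFP- HSCs and MPPs. Pkm, the pyruvate kinase of most tissues (chromosome 9, 59656576 to 59679372), stood at 16476 in GFP+ HSCs, 16393 in GFP- HSCs and 21982 in MPPs. It was 1.34-fold lower in GFP- HSCs than in MPPs.

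At the exit of the pathway, lactate dehydrogenase kept its sum while its minor subunit was higher in HSCs. Ldha, whose product favours the making of lactate (chromosome 7, 46842274 to 46855627), was level at 16611 in GFP+ HSCs, 17844 in GFP- HSCs and 18170 in MPPs. Ldhb, whose product favours the use of lactate (chromosome 6, 142490249 to 142507957), stood at 2506 in GFP+ HSCs, 1943 in GFP- HSCs and 726 in MPPs. It was 3.45-fold above MPPs in GFP+ HSCs and 2.68-fold above MPPs in GFP- HSCs, and 1.29-fold higher in GFP+ than in GFP- HSCs. Ldhb made up 17.4% in GFP+ HSCs, 13.2% in GFP- HSCs and 5.27% in MPPs of the family per length, and the sums were 11074 in GFP+ HSCs, 11321 in GFP- HSCs and 10568 in MPPs per kb. The lactate transporters both ran slightly lower in HSCs. Slc16a1, which encodes MCT1, stood at 2992 in GFP+ HSCs, 3478 in GFP- HSCs and 4465 in MPPs. Slc16a3, which encodes the exporter MCT4 of glycolytic cells, stood at 207 in GFP+ HSCs, 244 in GFP- HSCs and 255 in MPPs, and its gene overlaps Csnk1d, at 11122 in GFP+ HSCs, 10230 in GFP- HSCs and 8288 in MPPs.

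**Figure D4:**
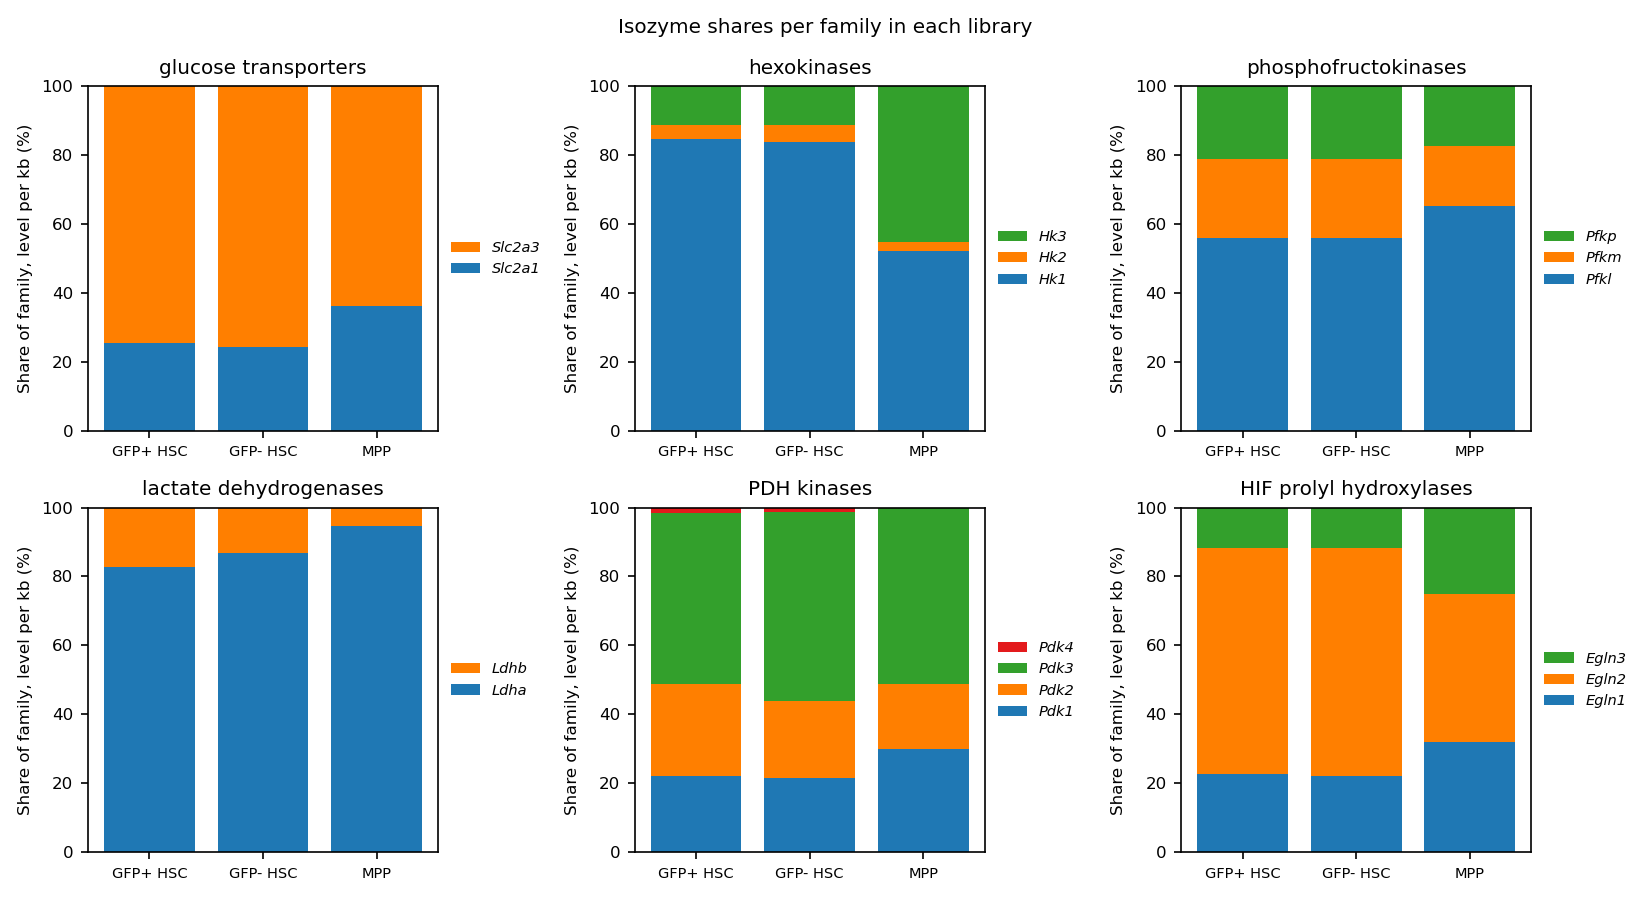
Share of each isozyme in the level per kb of its family (percent) in GFP+ HSCs, GFP- HSCs and MPPs, for 6 families, 1 library per bar. Hk3 takes 11.4% in GFP+ HSCs, 11.4% in GFP- HSCs and 45.3% in MPPs of the hexokinases, Ldhb 17.4% in GFP+ HSCs, 13.2% in GFP- HSCs and 5.27% in MPPs of the lactate dehydrogenases and Egln2 65.5% in GFP+ HSCs, 65.9% in GFP- HSCs and 43.2% in MPPs of the prolyl hydroxylases.

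Among the pyruvate dehydrogenase kinases, 1 member differed widely and the sum did not. Pdk4, which is induced by fasting and fatty acids in many tissues (chromosome 6, 5483351 to 5496278), stood at 176 in GFP+ HSCs, 144 in GFP- HSCs and 3 in MPPs. The log2 ratio of the level plus 5 was 4.50 for GFP+ HSCs and 4.22 for GFP- HSCs against MPPs, and no plain ratio is given because the level in MPPs is close to 0. Pdk2 stood at 1830 in GFP+ HSCs, 1469 in GFP- HSCs and 1148 in MPPs. Pdk1, a target of HIF, stood at 3556 in GFP+ HSCs, 3294 in GFP- HSCs and 4253 in MPPs, and Pdk3, likewise responsive to hypoxia in human cells, at 3225 in GFP+ HSCs, 3410 in GFP- HSCs and 2959 in MPPs. Pdk3 was the main form per length with 49.6% in GFP+ HSCs, 54.8% in GFP- HSCs and 51.2% in MPPs, and Pdk4 held 1.64% in GFP+ HSCs, 1.40% in GFP- HSCs and 0.0315% in MPPs. The order of Pdk3 and Pdk1 turned on the division by length. Without it, Pdk1 held 40.5% in GFP+ HSCs, 39.6% in GFP- HSCs and 50.9% in MPPs, and Pdk3 held 36.7% in GFP+ HSCs, 41.0% in GFP- HSCs and 35.4% in MPPs. The 4 kinases summed to 3076 in GFP+ HSCs, 2943 in GFP- HSCs and 2731 in MPPs per kb.

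Of the 2 HIF alpha subunits among the members, Hif1a was the main form, and its level did not set the populations apart. Hif1a (chromosome 12, 73901324 to 73947554) stood at 3988 in GFP+ HSCs, 4030 in GFP- HSCs and 4083 in MPPs, within 3% of each other. Its protein is regulated by degradation, which a transcript level does not show. Epas1, which encodes the second alpha subunit HIF-2 alpha (chromosome 17, 86753864 to 86833410), stood at 134 in GFP+ HSCs, 138 in GFP- HSCs and 1 in MPPs. The log2 ratio of the level plus 5 was 4.53 for GFP+ HSCs and 4.57 for GFP- HSCs against MPPs, and per length Epas1 was 2.80% in GFP+ HSCs, 2.85% in GFP- HSCs and 0.0210% in MPPs of these 2 alpha subunits. Epas1 is known from endothelium. Markers of stroma and endothelium summed to 4747 in GFP+ HSCs, 4326 in GFP- HSCs and 4875 in MPPs over 10 genes, of which 2 were at 0 in GFP+ HSCs, 0 in GFP- HSCs and 1 in MPPs, and the defining endothelial gene Cdh5 stood at 3 in GFP+ HSCs, 10 in GFP- HSCs and 10 in MPPs. Most of the MPP sum was Pecam1, also an endothelial marker, at 2098 in GFP+ HSCs, 2304 in GFP- HSCs and 4053 in MPPs, and the other 9 genes summed to 2649 in GFP+ HSCs, 2022 in GFP- HSCs and 822 in MPPs. As for Epas1, 4 of the 10 stood above their MPP level in both HSC libraries, the endothelial receptor gene Kdr at 713 in GFP+ HSCs, 444 in GFP- HSCs and 18 in MPPs, the collagen genes Col1a1 and Col1a2, and Emcn. The part of such cells in the Epas1 level was not tested. Arnt, the stable partner, stood at 2927 in GFP+ HSCs, 2629 in GFP- HSCs and 2365 in MPPs.

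The genes that mark HIF for degradation differed in opposite ways between HSCs and MPPs. Egln3, which encodes the hydroxylase PHD3 and is itself a HIF target (chromosome 12, 54178981 to 54203874), stood at 506 in GFP+ HSCs, 433 in GFP- HSCs and 1315 in MPPs, 2.60-fold lower in GFP+ HSCs and 3.04-fold lower in GFP- HSCs than in MPPs. Egln1, which encodes the main oxygen sensor PHD2 (chromosome 8, 124908587 to 124949254), stood at 1321 in GFP+ HSCs, 1097 in GFP- HSCs and 2267 in MPPs, 1.72-fold lower in GFP+ HSCs and 2.07-fold lower in GFP- HSCs than in MPPs. With the libraries rescaled to the same total, its log2 ratio for GFP- HSCs against MPPs was -0.97, short of 2-fold. Egln2, which encodes PHD1, stood at 2235 in GFP+ HSCs, 1902 in GFP- HSCs and 1799 in MPPs and was the main form per length, with 65.5% in GFP+ HSCs, 65.9% in GFP- HSCs and 43.2% in MPPs. The 3 hydroxylases summed to 1618 in GFP+ HSCs, 1371 in GFP- HSCs and 1979 in MPPs per kb. Vhl, the ubiquitin ligase subunit, stood at 1360 in GFP+ HSCs, 1277 in GFP- HSCs and 1132 in MPPs. All 4 of these genes were slightly higher in GFP+ than in GFP- HSCs, by 1.20-fold for Egln1, 1.18-fold for Egln2, 1.17-fold for Egln3 and 1.07-fold for Vhl.

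The remaining 2 members, both HIF targets outside glycolysis, differed from each other. Ddit4, which encodes REDD1, an inhibitor of mTORC1 that also responds to stress and glucocorticoids (chromosome 10, 59949675 to 59951770), stood at 1664 in GFP+ HSCs, 1403 in GFP- HSCs and 407 in MPPs. It was 4.09-fold above MPPs in GFP+ HSCs and 3.45-fold above MPPs in GFP- HSCs. Bnip3, which encodes a receptor for the removal of mitochondria, stood at 505 in GFP+ HSCs, 471 in GFP- HSCs and 437 in MPPs. Genes of the immediate-early and dissociation stress response, which can answer the handling of cells, also ran higher in GFP- HSCs than in MPPs in 17 of 22 cases, with a median log2 ratio of 0.46, and lower in GFP+ than in GFP- HSCs in 19 of 22, with a median of -0.19. Their part in the level of Ddit4 was not tested. The Ddit4 promoter is among those printed above.

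Neighbouring pathways of glucose use were mostly lower in HSCs, as were the cell division genes above. Of 20 genes of the citric acid cycle, which burns pyruvate in mitochondria, 18 stood below their MPP level in GFP- HSCs and 17 stood lower in GFP+ than in GFP- HSCs, with median log2 ratios of -0.41 and -0.11. The 15 glycolytic enzymes past the minimum were divided, with 8 below their MPP level in GFP- HSCs and medians of -0.01 and -0.02 in the same comparisons. No gene of the cycle was called in either of those comparisons. Of all genes, 11.6% were called higher and 5.53% lower in GFP- HSCs against MPPs. Between GFP+ and GFP- HSCs, 0.410% of all genes were called higher and 0.870% lower. In GFP+ HSCs against MPPs, 1 of the 20 was called lower (5%), beside 8.61% of all genes. It was the mitochondrial isocitrate dehydrogenase gene Idh2, at 6540 in GFP+ HSCs and 13557 in MPPs. The pentose phosphate pathway, which draws on glucose 6-phosphate for NADPH and ribose, had 9 of 11 genes below their MPP level in GFP- HSCs, with a median of -0.62. Its lactonase gene Pgls stood at 1418 in GFP+ HSCs, 1600 in GFP- HSCs and 3411 in MPPs, and its transaldolase gene Taldo1, called lower in GFP+ HSCs, at 3206 in GFP+ HSCs, 4093 in GFP- HSCs and 7416 in MPPs. Shpk, a sedoheptulose kinase, went the other way at 468 in GFP+ HSCs, 442 in GFP- HSCs and 188 in MPPs. The pyruvate dehydrogenase complex with its phosphatases and the pyruvate carriers had 6 of 10 genes below their MPP level in GFP- HSCs, with a median of -0.19. None was called, beside 11.6% of all genes called higher and 5.53% called lower. The part of cell division in these lists was not tested. Whether the lists differ from glycolysis beyond the spread between libraries could not be tested with 1 library each.

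Other genes of the HIF pathway were spread in both directions. Of 23 other regulators of HIF, 12 stood above their MPP level in GFP- HSCs, with a median of 0.13. Called higher were 2 (8.70%), beside 11.6% of all genes, and called lower 0, beside 5.53%. Those 2 were Hif3a, which encodes a further alpha subunit known to restrain HIF, at 755 in GFP+ HSCs, 606 in GFP- HSCs and 114 in MPPs, and Wtip, a LIM domain protein, at 360 in GFP+ HSCs, 207 in GFP- HSCs and 30 in MPPs. Wtip passed the minimum through its HSC levels, so that a difference was built into its selection. In GFP+ HSCs against GFP- HSCs 1 was called lower (4.35%), beside 0.870% of all genes. It was Cited4, a transcriptional co-regulator named here after its values were seen, at 41 in GFP+ HSCs, 87 in GFP- HSCs and 59 in MPPs. Cited4 passed the minimum through its GFP- HSC and MPP levels, so that a difference was built into its selection. In GFP+ HSCs against MPPs, 4 were called higher (17.4%) and 2 lower (8.70%), beside 13.7% and 8.61% of all genes, among them Hif3a, Wtip and the 3 genes that follow. Ajuba, a relative of Wtip, stood at 360 in GFP+ HSCs, 259 in GFP- HSCs and 130 in MPPs. Tceb2, which encodes elongin B of the VHL ligase, stood at 561 in GFP+ HSCs, 673 in GFP- HSCs and 1197 in MPPs, and the replication helicase gene Mcm7 at 4693 in GFP+ HSCs, 6434 in GFP- HSCs and 11627 in MPPs. Of 33 HIF targets outside glycolysis, 17 stood above and 16 below their MPP level in GFP- HSCs, with a median of 0.04. Of these, 5 were called higher (15.2%) and 3 called lower (9.09%), beside 11.6% and 5.53% of all genes. Pdgfb and Tgfa, with MPP levels of 19 and 21, passed the minimum through their HSC levels. The growth factor genes Pdgfb and Tgfa stood at 227 in GFP+ HSCs, 246 in GFP- HSCs and 19 in MPPs and at 192 in GFP+ HSCs, 156 in GFP- HSCs and 21 in MPPs, and the nuclear receptor gene Rora at 931 in GFP+ HSCs, 708 in GFP- HSCs and 176 in MPPs. The transferrin gene Trf stood at 1109 in GFP+ HSCs, 1484 in GFP- HSCs and 6956 in MPPs, the carbonic anhydrase gene Car12 at 49 in GFP+ HSCs, 74 in GFP- HSCs and 288 in MPPs, and Angptl4, an inhibitor of lipoprotein lipase, at 200 in GFP+ HSCs, 298 in GFP- HSCs and 640 in MPPs. Between GFP+ and GFP- HSCs, 13 of the 33 targets were higher and 20 lower, with a median of -0.06. None was called, beside 0.410% of all genes called higher and 0.870% called lower.

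**Figure D5:**
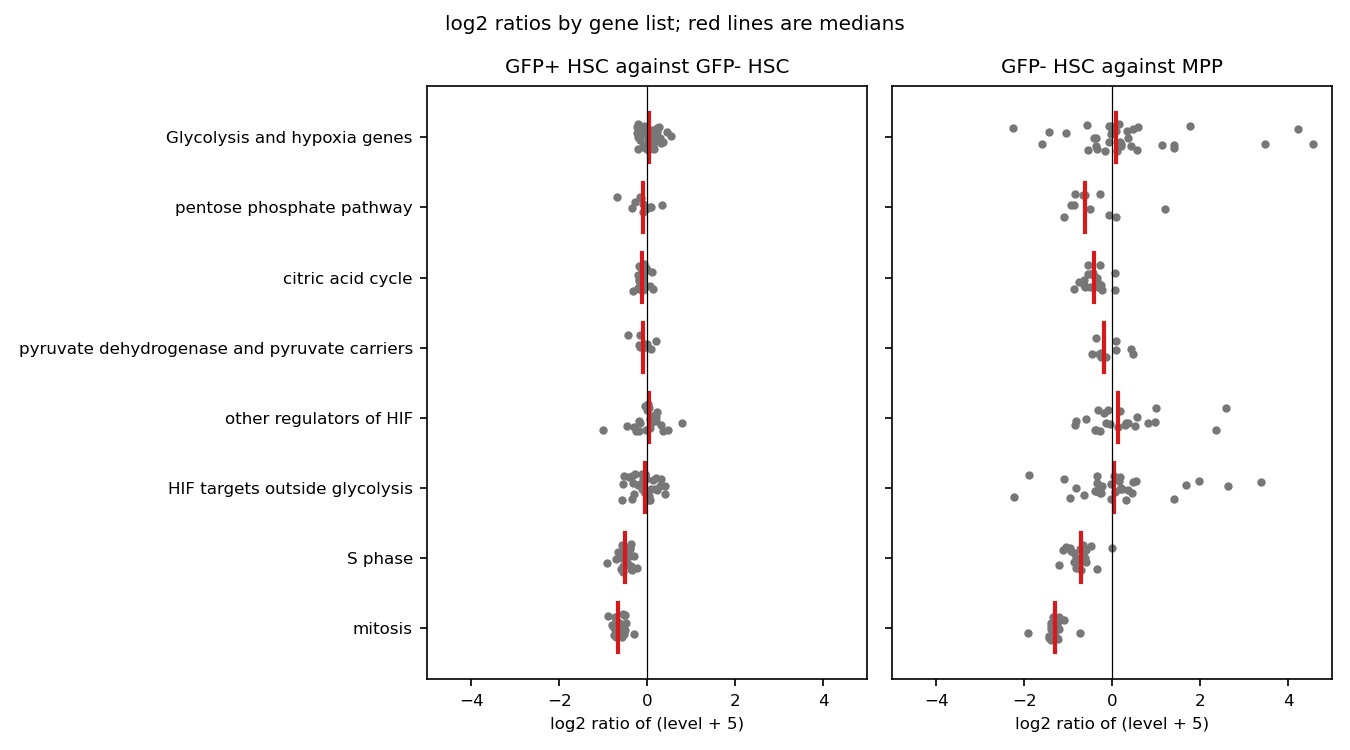
The log2 ratio of level plus 5 of each gene past the minimum in 8 lists, for GFP+ against GFP- HSCs on the left and GFP- HSCs against MPPs on the right, with a red line at the median of each list. The members' medians are 0.05 and 0.09, those of the citric acid cycle -0.11 and -0.41 and those of mitosis -0.68 and -1.31.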

How the data were processed

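RNA from 3 sorted populations, 1 library each, was made into cDNA with the SMART-seq v4 kit, per the labels' protocols, which copies full-length transcripts by PCR without molecular identifiers. The submitters' processing notes name the aligner STAR, DESeq2 and mm10. The sources used here give no version, annotation or counting step. The authors deposited normalized counts as whole numbers, treated here as a score. Whole reads cannot be derived from them, so depth and counting error are unknown. Of 23420 rows, 27 with a date in place of a symbol were left out.

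Ratios are log2 of (level + 5) in both libraries, for the 11951 genes that averaged 50 or more. Plain folds are ratios of levels. No test was run, since each population is 1 library. Members and lists were chosen with earlier results of these data known. All members are given. From each list, up to 3 genes in each direction were named, among those 2-fold apart with a mean of 100 or more. Of these, 1 is not reported here. Lengths and shared 32-base stretches come from the longest coding transcript of a symbol in GENCODE M21, or the longest of any kind where none is coding, and 94.0% of genes past the minimum had one. Coordinates are GRCm38 from RefSeq. The counting of calls was tested on simulated data. Alternatives were other pseudocounts, minimum means, scalings, trend corrections and a 1.5-fold rule. Python 3.11.15, numpy 2.4.6, pandas 2.3.3, statsmodels 0.14.6 and matplotlib 3.10.9 were used.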

Additional observations from a re-analysis of the deposited data

How the results depend on the processing

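Medians and counts of 2-fold members were recomputed under 11 other settings. Of 96 values, 93 moved by no more than 0.1 on the log2 scale for a median or 1.5 times for a count. With a minimum mean of 200, which leaves 30 members, the members called higher than in MPPs numbered 4 in GFP- HSCs and 4 in GFP+ HSCs, against 7 and 7. Of all genes with such a mean, 8.30% were called higher in GFP- HSCs and 10.2% in GFP+ HSCs. With a 1.5-fold rule, 6 of 36 members were called lower in GFP+ HSCs, set against MPPs, and not 3. The share of all genes called lower in that comparison rose as well, to 17.9985% from 8.61%. For GFP- HSCs against MPPs, Egln1 fell short of the 2-fold limit with equal totals, equal upper quartiles or the trend on mean level removed, at log2 ratios of -0.97, -0.98 and -0.99. The setting without the members that share over 50% of their transcript was added after the data were seen, as was the longest transcript of any type as length. Of 162 isozyme shares, 9 moved by over 1.5 times, those of Aldoc and Pdk1 without division by length and those of Pfkp with the longest transcript of any type. No paired analysis was possible because each population is 1 library.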

Other observations

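Other carriers of sugars and monocarboxylates, and proteins that escort them, included genes far apart between HSCs and MPPs in both directions. Slc16a9 stood at 1195 in GFP+ HSCs, 709 in GFP- HSCs and 108 in MPPs, and Slc16a12, a creatine carrier, at 668 in GFP+ HSCs, 849 in GFP- HSCs and 82 in MPPs. Slc16a11 stood at 46 in GFP+ HSCs, 54 in GFP- HSCs and 663 in MPPs. Emb, which encodes embigin, a chaperone of monocarboxylate transporters, stood at 2595 in GFP+ HSCs, 2701 in GFP- HSCs and 17709 in MPPs. Of 16 such genes past the minimum, 4 were called higher and 3 called lower in GFP- HSCs against MPPs, beside 11.6% and 5.53% of all genes, with a median log2 ratio of -0.11. Among the 3 was Slc2a6, named here after its values were seen, at 5 in GFP+ HSCs, 4 in GFP- HSCs and 179 in MPPs. It passed the minimum through its MPP level, so that a difference was built into its selection.

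Among other isozymes and regulators of glycolysis, Pfkfb2 stood at 1347 in GFP+ HSCs, 1046 in GFP- HSCs and 297 in MPPs, Ldhd, a D-lactate dehydrogenase, at 639 in GFP+ HSCs, 512 in GFP- HSCs and 124 in MPPs, and 9630033F20Rik, now called Tigar, which lowers fructose 2,6-bisphosphate, at 125 in GFP+ HSCs, 162 in GFP- HSCs and 390 in MPPs. Of these 11 genes past the minimum, 2 were called higher (18.2%) and 1 lower (9.09%) in GFP- HSCs against MPPs, beside 11.6% and 5.53% of all genes. Between GFP+ and GFP- HSCs, 1 was called lower (9.09%), beside 0.870% of all genes. It was the liver and red cell pyruvate kinase gene Pklr, named after its values were seen, at 19 in GFP+ HSCs, 94 in GFP- HSCs and 101 in MPPs. Pklr passed the minimum through its GFP- HSC and MPP levels, so that a difference was built into its selection. Of the 17 genes of mTORC1 and energy sensing past the minimum, 1 was called higher (5.88%) in GFP- HSCs against MPPs, beside 11.6% of all genes. It was the AMP-activated kinase subunit gene Prkaa2, at 672 in GFP+ HSCs, 462 in GFP- HSCs and 158 in MPPs. The median log2 ratio of those 17 was 0.07.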
